A study of Mus musculus with 1049 samples.

Results

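The 43 genes described here build and run the early secretory pathway, the route by which a fibroblast makes its matrix proteins, and they are set against the reads of the collagens that travel along it. They were chosen by name: 7 genes of the BiP chaperone cycle, 2 lectin chaperones, 2 other chaperones of the endoplasmic reticulum (ER), 5 foldases, 9 subunits of the translocon and its partners, 3 of signal peptidase, 5 of oligosaccharyltransferase, 5 genes of the COPII coat and cargo export, and 5 of the unfolded protein response and ER-associated degradation. All 43 were found among the 51777 genes common to the tables, and all 43 had enough reads to be tested. The cells were dermal fibroblasts of C57Bl/6 mice of 3 ages, called newborn (1.5 or 2.5 days), young (2 months) and old (18 months). No transgene, deletion or treatment is recorded for any group. Anagen patches and subdermis were removed before digestion with collagenase, so the groups stand for the sorted part of the remaining skin. Antibody staining for immune, mast cell, epithelial and endothelial markers and for CD34 and Pdgfra guided the sort, cells were placed singly in plate wells, and each was sequenced with Smart-seq2, a method that copies polyadenylated RNA along its length and uses no molecular identifiers.

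Proteins bound for secretion enter the ER through the Sec61 channel, lose their signal peptide and receive N-glycans as they enter, and fold with the help of chaperones, disulfide isomerases and prolyl isomerases. Folded cargo leaves in COPII-coated carriers, and procollagen, which is long and rigid, needs the export factor encoded by Mia3. When unfolded protein builds up, the unfolded protein response raises chaperones and degradation genes through the transcription factors encoded by Xbp1, Atf4 and Atf6, and Ddit3 is a target of Atf4. Dermal fibroblasts are a classic collagen-secreting cell, and collagen folding draws on members of this set: P4hb is also the beta subunit of collagen prolyl 4-hydroxylase, and Ppib, a prolyl isomerase, works in the complex that modifies collagen prolines.

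A DNA element that ties several members together is the ER stress response element, a CCAAT box and a CCACG box set 9 bases apart, to which NF-Y and Atf6 bind. The window searched ran from 250 bases before to 50 bases after each start site in RefSeq (GRCm38.p6), on both strands, and 36 of the 43 members had such a window. The pattern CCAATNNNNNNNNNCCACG was found in 7 of these 36 members (19.4%) and in 37 of 27025 genes (0.137%), or 39 of 32851 windows (0.119%). The 7 were all chaperones, cofactors or foldases: Hspa5, Hsp90b1 (with 2 matches), Calr, Canx, Creld2, Dnajc3 and Pdia6. Because the results below return to these members as a set, each match is printed with 10 bases on either side, read along the strand of the element, with the element in capitals.
Hspa5, chr2:34772015-34772053, plus strand: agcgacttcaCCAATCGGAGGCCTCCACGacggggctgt
Hsp90b1, chr10:86705628-86705666, minus strand: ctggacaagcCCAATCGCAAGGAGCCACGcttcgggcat
Hsp90b1, chr10:86705523-86705561, plus strand: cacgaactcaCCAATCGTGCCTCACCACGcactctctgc
Calr, chr8:84847065-84847103, plus strand: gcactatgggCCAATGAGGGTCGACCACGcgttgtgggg
Canx, chr11:50325790-50325828, minus strand: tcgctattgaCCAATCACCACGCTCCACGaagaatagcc
Creld2, chr15:88819510-88819548, minus strand: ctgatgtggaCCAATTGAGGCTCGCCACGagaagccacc
Dnajc3, chr14:118937817-118937855, plus strand: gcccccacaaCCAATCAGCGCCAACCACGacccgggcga
Pdia6, chr12:17266481-17266519, plus strand: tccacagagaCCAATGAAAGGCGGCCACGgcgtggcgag

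The element lay at differing distances from the start site, within the 250 bases before it that the window allowed. Its first base was 65 bases before the start in Hspa5, 98 in Pdia6, 105 in Dnajc3, 126 in Creld2, 145 in Canx and 162 in Calr, and in Hsp90b1 the matches began 107 and 212 bases before it. The 250 bases before the start of Hspa5, chr2:34771840-34772089 on the plus strand, show the element beside the start of the member with the highest level per length in young and old sums, with the element in capitals.
Hspa5: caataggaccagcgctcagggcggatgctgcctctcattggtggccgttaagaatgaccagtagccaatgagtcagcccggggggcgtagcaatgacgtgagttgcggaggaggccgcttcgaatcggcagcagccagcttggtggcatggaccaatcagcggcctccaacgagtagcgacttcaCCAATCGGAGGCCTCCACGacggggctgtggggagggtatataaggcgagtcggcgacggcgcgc

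A pair of further elements was searched in the same windows. The unfolded protein response element TGACGTGG, to which Xbp1 binds, was found in Sec23a and Sec24d, 2 of 36 members (5.56%), and in 0.714% of genes. The response element TTGCATCA, of the kind to which Atf4 and its partners bind, was found in Herpud1, 1 of 36 members (2.78%), and in 1.03% of genes. It began 112 bases before the start of Herpud1, the gene with the smallest p of all members in the comparison of young with newborn cells, and is printed here in capitals with 10 bases on either side.
Herpud1, chr8:94386307-94386334, plus strand: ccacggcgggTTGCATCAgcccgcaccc
No member's window held more than 1 kind of element. A match describes letters in the window and no binding was measured.

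Experiment 1 filled 5 plates and experiment 2 filled 4, with all 3 ages on every plate and 861 wells in all, and 735 cells were kept: 249 newborn, 246 young and 240 old. Kept cells held 246349 to 4331293 reads on genes. Adding the reads of all cells that share an age and an experiment gave 6 sums of 119682449 to 195324769 reads and n = 2 per age, and each pair of values below is in the order experiment 1, experiment 2. Levels are read counts scaled to a common library size with TMM factors (CPM). They are relative to the other genes of the same cells, so less RNA per cell would not show in them. Since no mice are named in the labels, the p-values measure only the spread between these sums. The sums carried the fibroblast markers, 10 of 10 with reads and 69447 to 186370 CPM in total, and 6 of 11 immune markers, Ptprc among them, had 0 reads. The other immune markers had reads, and their summed level and those of markers of other cell types are given below. The old sums stood apart from each other in the BiP cycle genes (below), so results that rest on them are also given for each experiment.

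The summed level of the pathway genes overlapped between the 3 ages, while collagen was far lower in old cells. The 43 members together were at 15386 and 14164 CPM in newborn sums, 17779 and 15006 in young sums and 19303 and 13237 in old sums. The old sums lay on either side of both young sums. The old-to-young difference of summed member CPM was -0.031 on the log2 scale, with 0.12 in experiment 1 and -0.18 in experiment 2, and without the old sum of experiment 1 it was -0.30 and without that of experiment 2 it was 0.24.

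Col1a1, Col1a2 and Col3a1, which encode the chains of the fibrillar collagens I and III, were together at 48470 and 40510 CPM in newborn sums, 61321 and 49897 in young sums and 11736 and 8893 in old sums. Both old sums lay far below all 4 others, and the old level was 5.41-fold lower than the young. The edgeR quasi-likelihood test, adjusted over 16684 genes, called none of the 3 chains (adjusted p from 0.128 to 0.759), though each had an unadjusted p under 0.05. DESeq2 and limma on mean log2 values per cell called all 3.

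The members outweighed collagen in old cells. For each collagen read there were 0.317 and 0.350 member reads in the newborn sums, 0.290 and 0.301 in the young and 1.64 and 1.49 in the old (1.57 ± 0.110 in old, SD, n = 2). The old-to-young ratio was 5.30-fold, or 2.41 on the log2 scale (2.50 and 2.31 in experiments 1 and 2), and it was above the young value on 9 of 9 plates, with young plates from 0.231 to 0.354 and old plates from 0.960 to 2.38. All 9 role groups had a higher value per collagen read in old than in young sums, from 4.16-fold for the translocon to 6.42-fold for the lectin chaperones.

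This shift in balance was shared by most genes. Per collagen read, both old sums lay above both young sums for 42 of 43 members, against 66.4% of all genes tested (3.05% lay below) and 87.2% of the 8194 genes tested with a mean of at least 10 CPM. The median member was 5.61-fold higher per collagen read and the median gene 5.41-fold. The exception was Sec63, at 6.53 and 0.62 reads per 1000 collagen reads in old and 0.37 and 1.36 in young sums. The members ranged from 2.48-fold (Hyou1, under 10 CPM at every age) to 8.38-fold (Spcs3) in this measure.

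**Figure D1:**
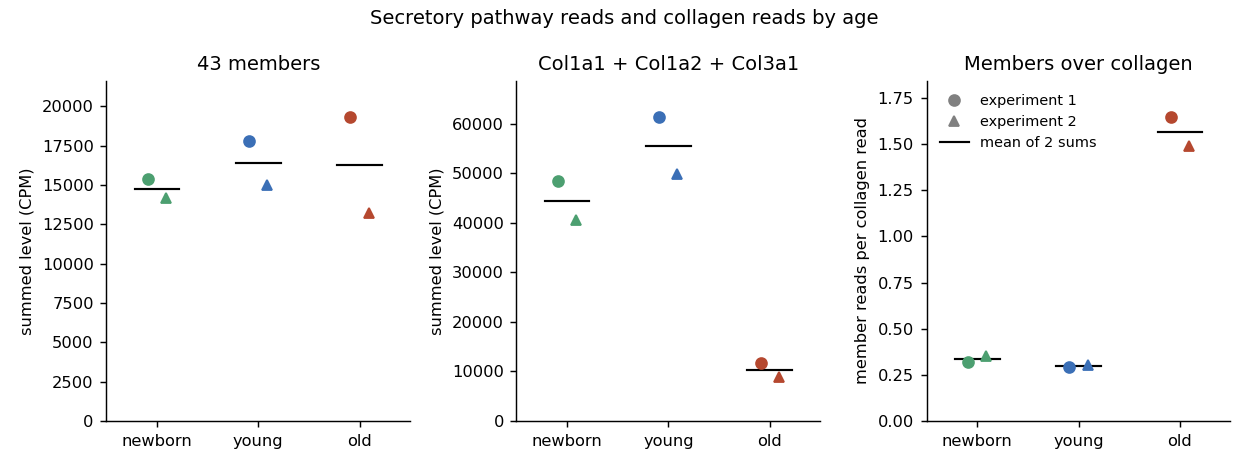
Summed CPM of the 43 members (left), summed CPM of Col1a1, Col1a2 and Col3a1 (middle) and member reads per collagen read (right) by age, with 1 point per sum (circle, experiment 1, and triangle, experiment 2) and a bar at the mean of 2 sums. The members lie between 13237 and 19303 CPM at all ages, collagen lies at 8893 to 11736 CPM in old sums, and the ratio reaches 1.49 to 1.64 there.

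Between newborn and young cells the ratio differed little. The ratio was 0.334 ± 0.0228 in newborn and 0.295 ± 0.00763 in young sums (SD, n = 2), a log2 difference of -0.17, and it was higher in young cells on 2 of 9 plates. Per collagen read, both young sums lay above both newborn sums for 10 members (16.4% of all genes) and below them for 21 (32.4%). For this pair of ages the direction of the summed member level rests on the scaling: it was 0.15 higher in young sums on the log2 scale with TMM and 0.28 lower (-0.28) with library totals alone. TMM factors were at least 1.19 in newborn sums and below 1 in adult sums, and leaving them out moved the median of all genes by -0.42.

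In single cells, collagen and the pathway genes were only weakly related within an age and experiment. Member reads outnumbered collagen reads in 21 of 158 and 12 of 91 newborn cells (13.3 and 13.2%). Among young cells this held for 24 of 142 and 21 of 104 (16.9 and 20.2%), and among old cells for 106 of 126 and 91 of 114 (84.1 and 79.8%). The exact 95% binomial intervals, which cover counting error only, reached at most 29.2% in young and went no lower than 71.3% in old cells. The median cell had 52729 and 39827 collagen CPM at the young age and 6191 and 6227 at the old. Member CPM, computed here with collagen reads left out of the total, had medians of 16559 and 12623 at the young age and 17697 and 12761 at the old. Spearman's rho between those measures, computed within each sum over 91 to 158 cells that share mice and plates, was 0.064 and 0.13 for newborn, 0.028 and -0.16 for young and 0.063 and 0.16 for old cells. Across single members, rho ran from -0.28 to 0.35, and 9 of 43 were above 0 in all 6 sums. The highest median was that of Ppib, which ran from 0.11 in the old cells of experiment 1 to 0.34 in the newborn cells of experiment 2. Hspa5 was the 1 member below 0 in all 6 sums, with a lowest rho of -0.21. These correlations are weak and the counts sparse, so they are descriptions only.

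**Figure D2:**
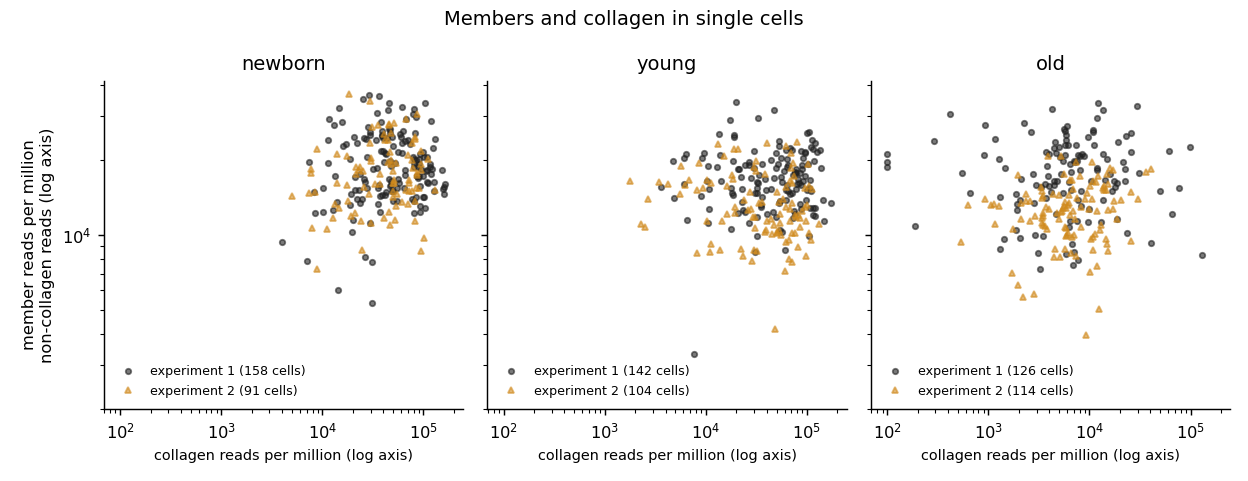
Each of the 735 kept cells by its collagen CPM (x, log axis) and its member CPM with collagen reads left out of the total (y, log axis), by age and experiment. The old cells lie to the left, around a median of 6191 and 6227 collagen CPM, at a like height, and 3 old cells of experiment 1 under 100 are drawn at 100.

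By length, the 5 members with the highest level in young sums were Hspa5, Pdia3, P4hb, Dnajb9 and Herpud1. Their mean RPKM (CPM per kilobase of exon) was 491 for Hspa5, 412 for Pdia3, 393.5 for P4hb, 361 for Dnajb9 and 299.7 for Herpud1. Hyou1, a large ER chaperone of the Hsp70 kind, was at the other end, at 0.55 in young sums. After thinning each cell to 100000 reads, the median member was read in 55.7 and 67.0% of cells at the newborn age, 59.2 and 61.5% at the young age and 44.4 and 48.2% at the old age. Cells of experiment 2 had more genes at every age after the same thinning (medians of 1799 and 2226 for newborn, 1648 and 2043 for young and 1503.5 and 1700.5 for old cells).

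Old and young cells did not part in any single member by the main test. Of all genes tested, edgeR called 0% in this comparison, and it called 0 of 43 members (adjusted p from 0.906 to 1). At an unadjusted p under 0.05, 1 member passed, Ssr2, against 4.85% of all genes. DESeq2 called Ssr2 alone (6.28% of all genes), and limma on mean log2 values per cell called 0 of the 42 members it tested (0.115% of 6970 genes). Both old sums lay above both young sums for 4 members (15% of all genes) and below them for 7 (15.9%), and 32 members overlapped. The median log2 difference was 0.052 for the members and 0.00 for all genes, and 42 of 43 members differed by less than 1 on the log2 scale. These medians depend on the measure: on mean log2 values per cell they were -0.395 for the 42 members and -0.0925 for the 6970 genes.

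Among members with the same sign in both experiments and a mean of at least 10 CPM at 1 age, the 6 with the most negative log2 fold changes were Ssr2, Lman1, Sec62, Ostc, Rpn1 and Ssr1. Hyou1, under 10 CPM at every age, was at 6.63 and 5.36 CPM in newborn sums, 3.42 and 4.504 in young sums and 2.45 and 1.32 in old sums. By plate it went the other way, higher in old than in young cells on 7 plates and lower on 2. Hyou1 was read in at most 6.35% of the thinned cells of any sum, so its sums rest on few cells. Ssr2, the beta subunit of the translocon-associated protein complex (chr3:88575876-88588419, plus strand, in GRCm38), was at 609.7 and 542 CPM in newborn sums, 377 and 306 in young sums and 197 and 159 in old sums. The 3 ages did not overlap, and the old level was below the young on 9 of 9 plates. Its log2 fold change was -0.94 ± 0.23 (standard error, SE), or 1.92-fold lower, with an edgeR adjusted p of 0.906, and DESeq2 gave an adjusted p of 7.79e-04.

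Ostc, a subunit that ties oligosaccharyltransferase to the translocon, followed the same order. It was at 933 and 576 CPM in newborn sums, 499.5 and 395 in young sums and 312 and 304 in old sums, without overlap between any ages, and was lower in old than in young cells on 9 of 9 plates (log2 fold change -0.54 ± 0.30, adjusted p = 0.910 with edgeR). Ssr1, the alpha subunit of the same complex as Ssr2, was at 852 and 637 CPM in newborn sums, 629.5 and 327 in young sums and 432 and 267 in old sums. Its old and young sums overlapped, and the log2 fold change of -0.45 became 0.099 without the young sum of experiment 1. Within experiments 1 and 2 the difference was -0.54 and -0.29, and Ssr1 was lower in old cells on 8 of 9 plates. The 9 translocon genes together were at 3018 and 2693 CPM in newborn sums, 2581 and 1973 in young sums and 2008 and 1500 in old sums. The old sum of experiment 1 lay above the young sum of experiment 2, so these groups overlapped. Within experiments 1 and 2 the old-to-young log2 difference of this sum was -0.36 and -0.40.

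Sec62, a partner of the channel that helps short proteins to enter, was at 160 and 243 CPM in newborn sums, 332 and 259 in young sums and 185 and 194 in old sums. Its level was highest in young cells, and both old sums lay below both young (log2 fold change -0.64 ± 0.29, adjusted p = 0.910 with edgeR). Lman1, a lectin receptor that carries glycoproteins from the ER, was at 194 and 134 CPM in newborn sums, 184 and 97.3 in young sums and 89.3 and 81.8 in old sums, and lay lower in old cells on 8 of 9 plates (-0.72 ± 0.39, adjusted p = 0.910 with edgeR). Rpn1, a subunit of oligosaccharyltransferase, was at 234 and 219.5 CPM in newborn sums, 280.2 and 212 in young sums and 255 and 102 in old sums. Only the old sum of experiment 2 lay apart, and the log2 fold change of -0.46 became 0.051 without it.

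Both old sums lay above both young sums for Spcs3, Sel1l, Mia3 and Sec61a1. Where 3 pairs of values follow each other below, they stand for newborn, young and old sums. Spcs3, a subunit of signal peptidase, was at 47.7 and 58.2 CPM in newborn sums, 126 and 81.6 in young sums and 146 and 167 in old sums. The ages did not overlap, and old cells lay above young on 9 of 9 plates (log2 fold change 0.60 ± 0.31, adjusted p = 0.910 with edgeR). Sel1l, the adaptor of the ERAD ubiquitin ligase Hrd1, was at 71.4 and 47.4, 53.1 and 52.2, and 77.3 and 64.6 CPM at the 3 ages, and Mia3 at 41.1 and 45.2, 63.4 and 70.2, and 77.4 and 87.2 CPM. Both had old sums above the young ones, with log2 fold changes of 0.43 ± 0.34 and 0.30 ± 0.28, and Mia3 had a difference of -0.43 instead on the scale of mean log2 values per cell. Few cells carried these levels. In old cells the 5 highest cells held 54.0 and 69.6% of the summed per-cell read shares of Sel1l. For Mia3 they held 54.6 and 51.5%.

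Canx, Pdia3 and Ddit3 completed the upper end, and each changed sign when certain single sums were left out. Canx, a membrane-bound lectin chaperone, was at 401 and 338 CPM in newborn sums, 418 and 307 in young sums and 523 and 346 in old sums. Pdia3, the disulfide isomerase that works with Canx and Calr, was at 1304 and 886, 1620 and 967, and 1915 and 1110 CPM, and Ddit3 at 42.2 and 36.1, 109.7 and 66.9, and 127 and 78.9 CPM. Old and young sums of all 3 overlapped. Their log2 fold changes were 0.26, 0.23 and 0.22, and without the old sum of experiment 1 they were -0.082, -0.24 and -0.18. That setting compares the old sum of experiment 2 with young sums of both experiments. Within experiments 1 and 2 the old-to-young log2 ratio was 0.32 and 0.17 for Canx and 0.24 and 0.20 for Pdia3. Ddit3 was also higher in old than in young sums within each experiment.

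**Figure D3:**
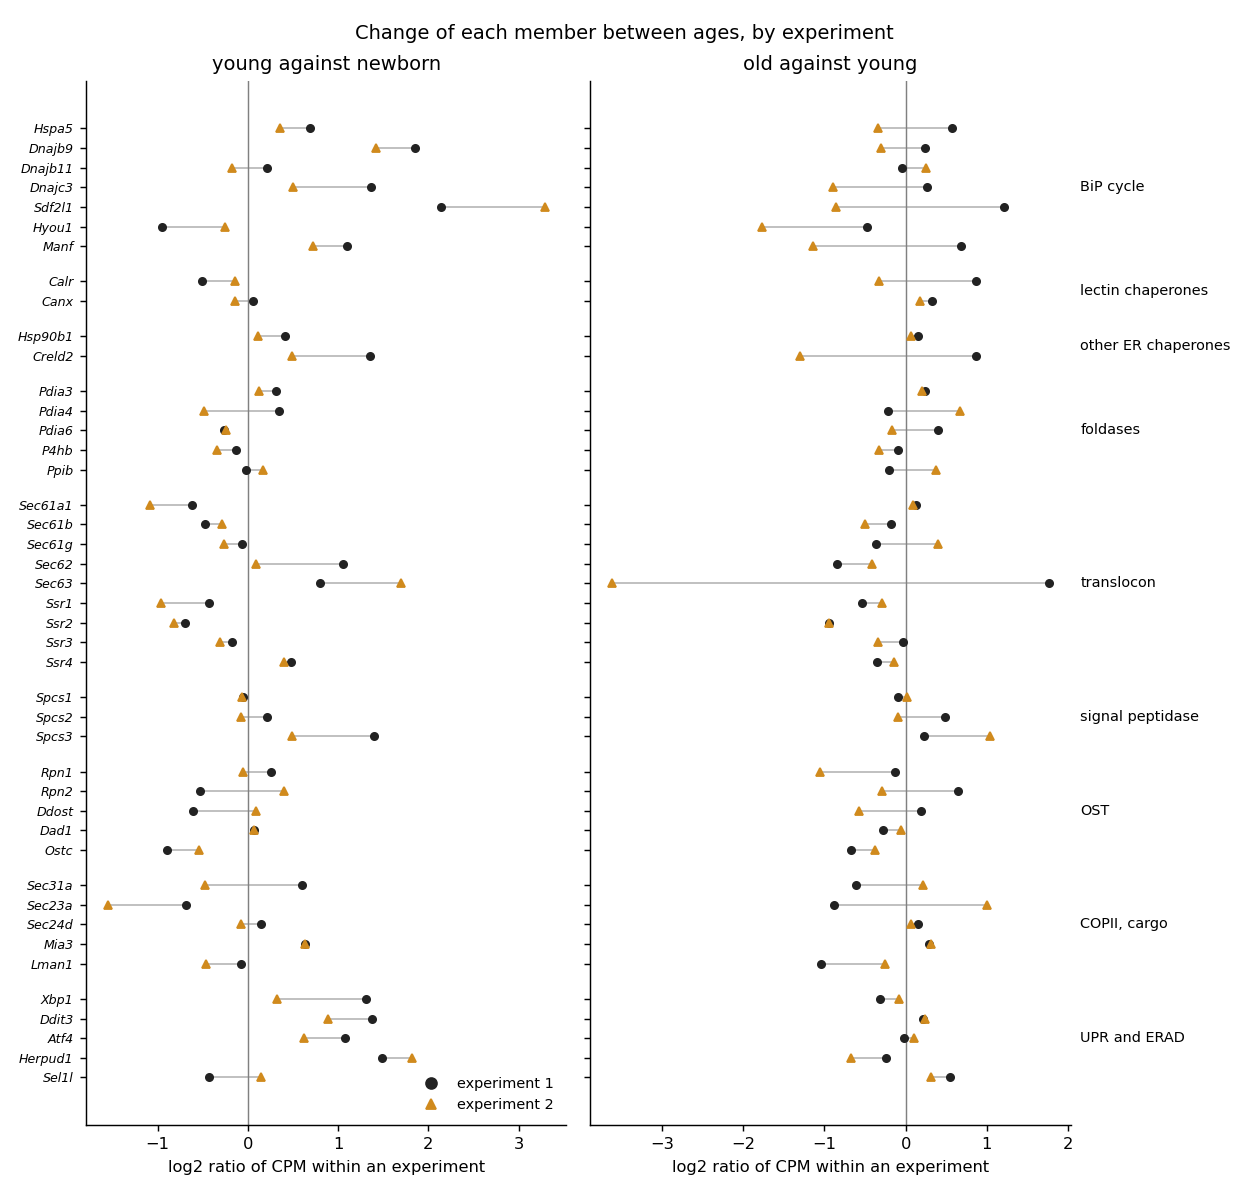
Log2 ratio of CPM between ages within experiment 1 (circles) and experiment 2 (triangles) for each of the 43 members, grouped by role, for young against newborn (left) and old against young (right). Herpud1, Dnajb9, Sdf2l1 and Ddit3 lie right of 0 in both experiments on the left, and Ssr2 lies left of 0 in both on both sides, while most BiP cycle members lie on opposite sides of 0 on the right.

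The old sums of the 2 experiments stood apart in the BiP cycle and in other ER chaperones (below). BiP, encoded by Hspa5, is the Hsp70 chaperone of the ER, and its J-domain partners (Dnajb9, Dnajb11, Dnajc3), Sdf2l1, Hyou1 and Manf set its cycle. The 7 genes together were at 2086 and 2345 CPM in newborn sums, 3928 and 3694 in young sums and 5547 and 2805 in old sums. Newborn and young sums were alike within their age, while the old sum of experiment 1 was the highest of all 6 and that of experiment 2 lay below both young sums. The old-to-young difference on the log2 scale was 0.50 in experiment 1 and -0.40 in experiment 2, and the difference between experiments was not tested.

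Hspa5 and Manf had a high old sum in experiment 1 and a low one in experiment 2, while Dnajb9, at 841 and 910.0 CPM in old sums, did not. Hspa5 was at 1409 and 1478 CPM in newborn sums, 2267 and 1889 in young sums and 3366 and 1490 in old sums. It was higher in old than in young cells on 4 of 5 plates of experiment 1 and on 0 of 4 plates of experiment 2. Manf, a small secreted partner of BiP, was at 208 and 186, 448 and 307, and 719 and 139 CPM at the 3 ages. On plates of old cells it ranged from 328 to 1089 CPM in experiment 1 and from 109.7 to 177 in experiment 2, without overlap. Creld2, an ER protein induced by unfolded protein, was at 60.6 and 92.6, 154 and 129.9, and 280.5 and 52.6 CPM, and its old plates ranged from 174 to 358 and from 12.4 to 119 CPM. Manf and Creld2 were named after their values were seen.

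The members with an ER stress response element did not share 1 direction with age. Of those 7, 4 lay above and 3 below newborn in young cells, with log2 fold changes from -0.32 to 0.94. In old against young cells 6 lay above and 1 below, from -0.12 to 0.33, and of all 43 members 22 lay above. In experiment 1 all 7 lay above, with log2 ratios from 0.15 (Hsp90b1) to 0.87 (Calr). In experiment 2 Canx (0.17) and Hsp90b1 (0.065) lay above, and the others lay below, from -0.17 (Pdia6) to -1.30 (Creld2). Calr, the soluble lectin chaperone, was at 210.1 and 204 CPM in newborn sums, 148 and 184 in young sums and 269 and 147 in old sums. Hsp90b1, the Hsp90 of the ER, was at 731 and 607, 970 and 653, and 1077 and 683 CPM. In old sums all 7 had higher values in experiment 1 than in experiment 2, as did 31 of the 43 members and 49.4% of genes with a mean of at least 10 CPM, a comparison chosen after the values were seen.

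**Figure D4:**
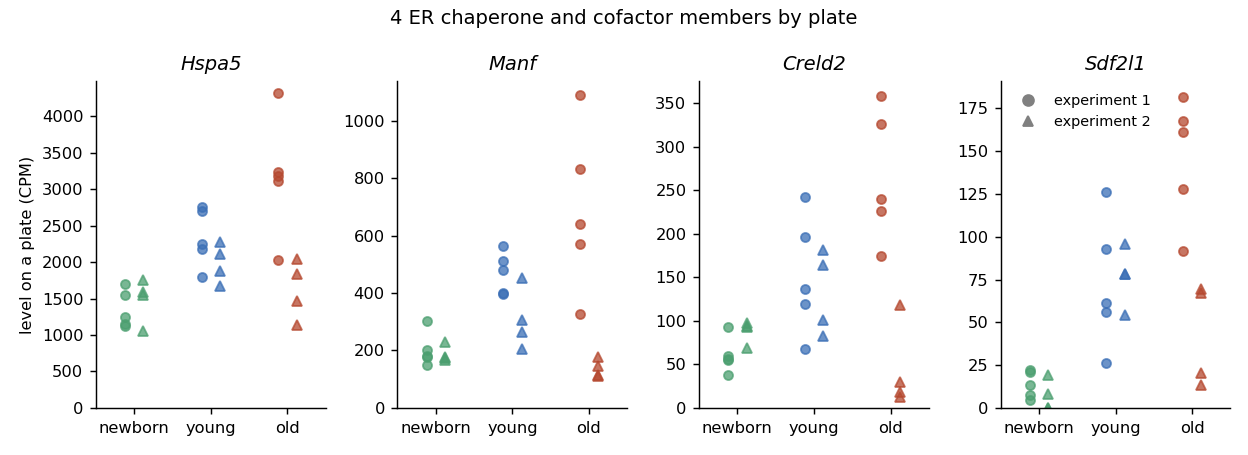
CPM of Hspa5, Manf, Creld2 and Sdf2l1 on each of the 9 plates by age (circles, 5 plates of experiment 1, and triangles, 4 of experiment 2). In old cells, plates of the 2 experiments separate for Manf, at 328 to 1089 against 109.7 to 177 CPM, while young plates of the 2 experiments overlap.

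The foldases that also serve collagen differed by small steps. P4hb was at 1200 and 1474 CPM in newborn sums, 1091 and 1161 in young sums and 1026 and 921 in old sums. These are small steps, although no old sum overlapped a young one. Ppib was at 605 and 530, 594 and 595.5, and 514.5 and 773 CPM, with overlap at every age. Col1a1, in contrast, went from 18036 and 13003 CPM in young to 2696 and 1538 in old sums.

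The levels of the other representative members were as follows. Sec61a1, the pore of the channel, was at 191 and 275 CPM in newborn sums, 124 and 129.7 in young sums and 136 and 138 in old sums, so that both old sums lay above both young. The step was small (log2 fold change 0.11 ± 0.26), and by plate it was higher in old cells on 5 and lower on 4. Sec61b, a small channel subunit, was at 346 and 218, 248 and 179, and 219.7 and 127 CPM. Ssr4 was at 183 and 176, 254 and 232, and 199 and 209.6 CPM, with both old sums below both young. Spcs2, of signal peptidase, was at 486 and 420.2, 563 and 397.5, and 787 and 371 CPM. Ddost, of oligosaccharyltransferase, was at 443 and 374, 291 and 398, and 333 and 266 CPM, and Sec31a, of the outer COPII coat, at 114 and 141, 173 and 102, and 113 and 117 CPM. The old sums of Spcs2, Ddost and Sec31a overlapped the young ones.

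The genes of the unfolded protein response and ERAD were at a higher summed level in young than in newborn cells with either scaling. The 5 members of that group together were at 796 and 921 CPM in newborn sums, 1888 and 1657 in young sums and 1679 and 1459 in old sums. Both adult ages lay above both newborn sums, and young was 2.07-fold over newborn, a log2 difference of 1.05 with TMM and 0.62 with library totals. Of the 5, 4 had a log2 fold change above 0, and Sel1l, with the values above, had one below 0 (-0.17). The edgeR test called 0.779% of all genes in this comparison (0.719% higher and 0.0599% lower) and 0 of 43 members (adjusted p from 0.179 to 1). At an unadjusted p under 0.05, 8 members passed, 6 with higher and 2 with lower values in young cells, against 13.3% of all genes, which puts the members' share of 8 in 43 near the background.

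Other tests made more calls. DESeq2 called 8 members, 6 higher and 2 lower (14.3% of all genes), limma on mean log2 values per cell called 6 of 42 (19.3% of 6970 genes), and edgeR limited to genes with a read in 10% or more of cells at 1 age called Herpud1 alone (7.06% of 6970 genes). Herpud1 was thus called by 3 of these alternatives. Both young sums lay above both newborn sums for 15 members (22.1% of all genes) and below them for 9 (25.1%), and 19 overlapped. The median log2 fold change was 0.067 for the members and -0.067 for all genes. On mean log2 values per cell the medians were -0.502 for the 42 members and -0.263 for the 6970 genes.

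Herpud1, a membrane protein of ER-associated degradation (chr8:94386438-94395377, plus strand, in GRCm38), was at 274 and 179 CPM in newborn sums, 766 and 632 in young sums and 649 and 398 in old sums. Every adult sum lay above both newborn sums, and young lay above newborn on 9 of 9 plates. The log2 fold change between young and newborn was 1.63 ± 0.36 (SE), or 3.09-fold, with an edgeR adjusted p of 0.179. DESeq2 gave an adjusted p of 3.63e-04.

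Sdf2l1 and Dnajb9, cofactors of BiP, had both young sums above both newborn sums. Sdf2l1 was at 13.4 and 8.10 CPM in newborn sums, 59.3 and 79.0 in young sums and 138 and 43.8 in old sums, again with every adult sum above both newborn sums. Its log2 fold change in young cells was 2.68 ± 0.68 (6.42-fold, edgeR adjusted p = 0.222), with higher values on 9 of 9 plates. Sdf2l1 was read in 6.96 and 6.59% of the thinned newborn cells and in 19.0 and 26.9% of the young. The newborn level thus rests on few cells. Dnajb9 was at 198 and 421, 715 and 1125, and 841 and 910.0 CPM at the 3 ages, with the same separation and 9 of 9 plates (1.57 ± 0.44, edgeR adjusted p = 0.249). Ddit3, given above, was higher in young cells on 9 of 9 plates (1.17 ± 0.41, edgeR adjusted p = 0.312).

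Xbp1 and Atf4, transcription factors of the response, had less even steps. Xbp1 was at 267 and 364 CPM in newborn sums, 662 and 453 in young sums and 532.5 and 429 in old sums, without overlap between newborn and adult sums. Atf4 was at 141 and 295, 296 and 453, and 293 and 489 CPM. Its newborn and young sums were separated by a narrow margin, and within each experiment the adult values were alike. Translation and splicing, through which these factors are controlled, are not seen in read counts per gene.

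Stress genes of tissue dissociation were also higher in adult sums. The 15 genes of that list, all with reads, summed to 12722 and 12352 CPM in newborn sums, 19864 and 27037 in young sums and 20610 and 21305 in old sums. Their part in the differences of the unfolded protein response members was not tested. The 12 cell cycle markers lay the other way, at 819 and 492 CPM in newborn and 198 to 276 in adult sums, and their part was not tested either. The 11 immune and macrophage markers summed to 2.08 and 0.716 CPM in newborn, 186 and 52.9 in young and 29.7 and 39.5 CPM in old cells. The 8 markers of pericytes and smooth muscle, Rgs5 among them at 0 reads, summed to 64.4 and 176 CPM in newborn and 6.74 to 21.3 in adult sums. The 8 endothelial markers summed to 30.9 and 15.8 CPM in newborn and 67.5 to 90.7 in adult sums. Adipocyte markers, 6 in all, summed to 24.2 and 32.1 CPM in newborn and 0.0393 to 5.04 in adult sums. The 9 keratinocyte markers summed to 22.9 to 77.6 CPM over all sums. The part of these marker lists in the differences between young and newborn cells was not tested.

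**Figure D5:**
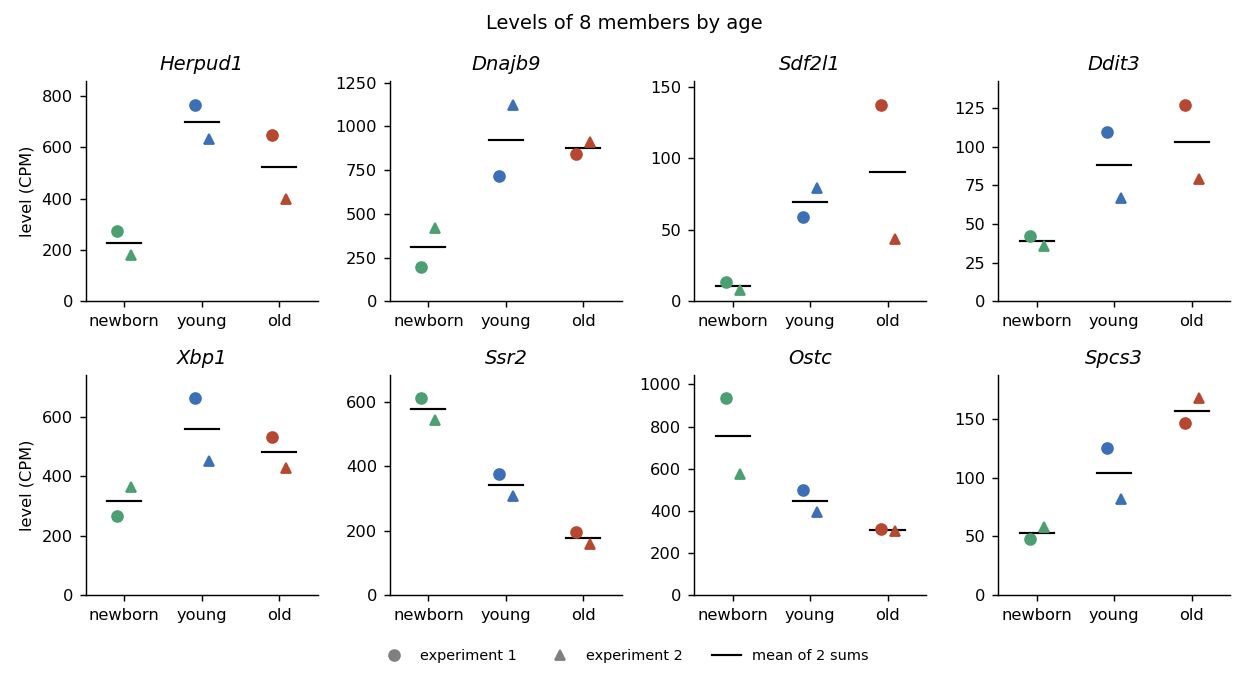
CPM of 8 members in each sum by age (circle, experiment 1, and triangle, experiment 2, with a bar at the mean of 2 sums). Herpud1, Dnajb9, Sdf2l1, Ddit3 and Xbp1 have both adult ages above newborn, Ssr2 and Ostc step down from newborn to old, and Spcs3 steps up from 47.7 and 58.2 to 146 and 167 CPM.

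The other members at the upper end were Spcs3, with the values above (log2 fold change 0.97 ± 0.32, edgeR adjusted p = 0.284), and Sec63, a J-domain partner of the channel. Spcs3 was higher in young than in newborn cells on 6 plates and lower on 3, and was read in 12.7 and 17.6% of thinned newborn cells. Sec63 was at 13.0 and 20.9 CPM in newborn sums, 22.6 and 67.9 in young sums and 76.6 and 5.55 in old sums. It was read in at most 12.5% of the thinned cells of any sum (1.42 ± 1.27, edgeR adjusted p = 0.750).

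At the lower end in young cells stood channel and glycosylation subunits and a COPII gene. Sec23a, of the inner COPII coat, was at 255 and 237 CPM in newborn sums, 158 and 80.8 in young sums and 86.3 and 162 in old sums (log2 fold change -1.04 ± 0.47, edgeR adjusted p = 0.443). All adult sums lay below both newborn sums. Sec61a1, given above, had the same separation and was lower in young cells on 9 of 9 plates (-0.87 ± 0.26, edgeR adjusted p = 0.258). Ssr2 (-0.75 ± 0.23, edgeR adjusted p = 0.260) and Ostc (-0.75 ± 0.30, edgeR adjusted p = 0.385) were also lower on 9 of 9 plates, Ssr1 (-0.64 ± 0.43) on 8 and Sec61b (-0.40 ± 0.41) on 8.

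Genes of the same pathway outside the 43 were drawn from 6 further lists. Of 168 genes listed, 164 were found and 162 tested. Between old and young cells edgeR called 0 of 162, with 9 at an unadjusted p under 0.05 (1 higher and 8 lower), against 4.85% of all genes. DESeq2 called 9 (6.28% of all genes) and limma on mean log2 values per cell 0 of 136 (0.115% of 6970 genes). Of the 162, both old sums lay below both young sums for 42 (25.9%) and above them for 16 (9.88%), against 15.9% and 15% of all genes. The 43 other genes of COPII and ER-Golgi traffic had the largest share below of the 6 lists, with 17 below and 1 above. Of the 18 other genes of N-glycans and glycoprotein folding, 0 lay below and 2 above. The 4 smallest p-values belonged to Sec61a2, Asns, Ppic and Tfg.

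Sec61a2, the close paralog of Sec61a1, was at 67.1 and 60.4 CPM in newborn sums, 31.9 and 30.4 in young sums and 114 and 91.7 in old sums (log2 fold change 1.73 ± 0.30 between old and young, edgeR adjusted p = 0.906). The ages did not overlap. Ppic, a prolyl isomerase of the ER related to Ppib, was at 3418 and 2778, 1530 and 1465, and 801 and 983 CPM (-0.75 ± 0.20, adjusted p = 0.906), stepping down where Ppib did not. Tfg, an organiser of ER exit sites, was at 121 and 134, 167 and 183, and 101 and 99.7 CPM (-0.80 ± 0.22, adjusted p = 0.906). Asns, an asparagine synthetase gene controlled by Atf4, was at 11.8 and 3.28 CPM in young and at 0 and 0.0111 in old sums.

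Between young and newborn cells 1 of the 162 genes passed the edgeR test. Nupr1, a nuclear protein gene of the stress response, was at 87.6 and 72.7 CPM in newborn sums, 3335 and 2367 in young sums and 2065 and 1992 in old sums. Its log2 fold change in young cells was 5.15 ± 0.28 with an edgeR adjusted p of 0.00924. At an unadjusted p under 0.05, 15 of the 162 passed, 11 with higher and 4 with lower values in young cells, against 13.3% of all genes. DESeq2 called 19 of them (14.3% of all genes) and limma on mean log2 values per cell 14 of 136 (19.3% of 6970 genes).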

How the data were processed

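Read counts per gene and cell, whole numbers not yet normalized, were deposited by the authors as plate tables. Per the submitters' processing notes the build was GRCm38 and FastQC was run. Aligner, counting program and strand setting: not given in the sources used here. How reads that fit several genes were treated is unknown too, so genes with similar copies, such as Sec61a1 and its paralog Sec61a2, may carry that uncertainty. Of 1049 labelled columns 5 held no value, and 2 pairs of plates were the same wells sequenced in 2 runs, which were added. Cells with at least 50000 reads, 1000 genes and at most 25% mitochondrial reads were kept, 97.3% of wells at the newborn age, 85.7% at the young and 75.5% at the old. No doublet caller was run on these single sorted cells. Symbols, positions and exon lengths came from GENCODE M21.

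The 6 sums entered edgeR 4.0.16 (R 4.3.3) with TMM factors, filterByExpr and a robust quasi-likelihood fit on age alone, and p-values were adjusted by Benjamini-Hochberg over 16684 genes (threshold 0.05). The fit had a common coefficient of variation of 1.13 and 3 residual degrees of freedom. The experiment was left out of the main fit, because over all genes tested deviations from age means correlated at only -0.00017 to 0.0125 between ages. The members did tend to lie higher in experiment 1 at each age (below), and the fit with the experiment as block is given below. DESeq2 1.42.0, limma 3.58.1 and other settings were alternatives. The code was tested on simulated data. Members and lists were chosen with earlier results of these data known. Named with values were 17 representative members and, per comparison, the 6 highest and 6 lowest log2 fold changes of like sign in both experiments with a mean of at least 10 CPM at 1 age. In addition, the 3 collagens and further pathway genes past the threshold, or else the 4 of smallest p, were named.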

Additional observations from a re-analysis of the deposited data

How the results depend on the processing

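The members called, the summed member reads and the ratio to collagen were recomputed for both comparisons under the alternatives, as were 24 member changes. Of 406 alternative values for the members' changes, 398 kept their direction and 14 newly passed the threshold. The 8 that turned, all in old against young cells, were Mia3 on mean log2 values per cell (-0.43) and values without 1 sum. Canx ranged from -0.082 (without the old sum of experiment 1) to 0.53 when a sum was left out. Pdia3 ranged from -0.24 (without that sum) to 0.65 and was -0.10 without the young sum of experiment 2. Ddit3 ranged from -0.18 (without the old sum of experiment 1) to 0.62 and was -0.093 without the young sum of experiment 2. Rpn1 ranged from -1.28 to 0.051 (without the old sum of experiment 2) and Ssr1 from -0.85 to 0.099 (without the young sum of experiment 1). The cause was not tested. Members called between old and young went from 0 to 1 with DESeq2, and between young and newborn from 0 to 8 with DESeq2, 6 with limma on mean log2 values per cell and 1 with edgeR limited to genes read in 10% or more of cells at 1 age. With the experiment as replicate block the count was 0 in both comparisons, and the block changed no call. Leaving out each sum in turn gave 0 throughout. Summed member reads ranged from -0.30 to 0.24 (old against young) and from 0.024 to 0.27 (young against newborn) on the log2 scale when a sum was left out, and the latter was -0.28 with library totals without TMM, an alternative chosen after seeing the data. Member reads per collagen read ranged from 2.33 to 2.48 for old against young. For young against newborn they ranged from -0.24 to -0.10, and were -0.27 with cells thinned to equal reads and -0.054 with a wider list of 20 collagens. With 2 sums per age and a coefficient of variation of 1.13, a change below the threshold is not shown to be absent.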

Other observations

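The members tended to lie higher in experiment 1 than in experiment 2 at each age. This held for 29 of 43 newborn values (67.4%), 30 of 43 young values (69.8%) and 31 of 43 old values (72.1%), against 48.4, 49.5 and 49.4% of genes with a mean of at least 10 CPM. In old sums the median log2 difference between experiments was 1.54 over the 2 other ER chaperones and 1.18 over the 7 BiP cycle genes. It was 0.73 over the 2 lectin chaperones and -0.17 over the 5 genes of COPII and cargo export. The remaining groups lay from 0.16 (foldases) to 0.32 (oligosaccharyltransferase). The 2 experiments contributed different plates and cells, and no mice are named, so animals and batches cannot be told apart.

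Across cells, the members followed Hspa5 only loosely. Spearman's rho with Hspa5 within a sum ran from -0.25 to 0.36, and 3 of the 42 others were above 0 in all 6 sums. Pdia4 ranged from 0.06 to 0.25 and Hsp90b1 from 0.01 to 0.23. Manf reached 0.36 in old cells of experiment 1. The cells of a sum share mice, plates and depth, and no p was computed.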
